A study of Mus musculus with 12 samples.

Results

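The genes described here encode the core machinery of messenger RNA transcription: the subunits of RNA polymerase II, the general initiation factors TBP, TFIIA, TFIIB, TFIIE and TFIIF, and the Mediator complex. Members were chosen by symbol alone, as protein-coding genes whose mouse symbol begins with Polr2, with Med and a digit, or with Gtf2a, Gtf2b, Gtf2e or Gtf2f, together with Tbp. TFIIH, the complex that contains Cdk7, was left out. The rule found 52 of the 53379 genes in the count tables: 13 of polymerase II, 9 general factors and 30 of Mediator. Of these, 50 passed the filter on low counts, out of 16554 genes that did. The TFIIA homologue Gtf2a1l had 3 counts over all 12 libraries. Med20, a Mediator head subunit, had 0 counts in every library. In GENCODE M21 it shares 513 exon bases on the same strand with the protein-coding gene Gm20517, and its level was not analysed here.

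RNA was taken from perigonadal white adipose tissue (WAT), a visceral fat depot, of C57BL/6 mice that were 9 weeks old, killed at zeitgeber time 9. The 4 groups were control littermates (wt) given saline, wt given CL, mice with an adipose-specific knockout of Cdk7 (ko) given saline, and ko given CL, each for 7 days. CL is the labels' name for the drug, the usual short form for a beta-3-adrenergic agonist in this field. Each group had 3 libraries, and each library pooled RNA of 2 mice, with 250 ng from each, so the spread below is that between pools. The promoter that drives the knockout is not given in the sources used here. An adipose-specific knockout is meant to leave Cdk7 in the other cell types of the depot, but Cdk7 was not measured by cell type. Groups were read from the titles, since a separate genotype tag follows the treatment and contradicts 6 of the 12 titles.

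Polymerase II is recruited to promoters with the general factors, which position it at the start site and open the DNA. Mediator bridges this assembly to DNA-bound activators through its head, middle and tail modules, and its kinase module binds it reversibly. Cdk7, the kinase of TFIIH, phosphorylates the repeated tail of Polr2a, the largest polymerase subunit, during initiation. In adipocytes, Mediator subunits such as Med1, Med14 and Med23 are known partners of the factors that drive fat cell differentiation and insulin-responsive genes.

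The libraries held 21892817 to 27985019 gene counts. The Cdk7 level was 29.6 ± 0.35 CPM (SD, n = 3) in wt saline, 32.6 ± 2.6 in wt CL, 11.4 ± 0.36 in ko saline and 20.4 ± 2.9 in ko CL, so each ko library lay below each wt library. CPM are counts brought to a common library total, here after TMM scaling, which sets libraries level on the bulk of their genes. The summed level of 7 adipocyte markers was 21900 to 24000 CPM in the wt saline libraries, 26500 to 28800 in wt CL, 14600 to 15700 in ko saline and, lowest, 7050 to 10800 in ko CL. Fabp4 had the largest part of this sum, with means of 11420, 16500, 7005 and 5066 CPM. The markers did not all move with the sum: for CL in wt 1 of the 7 was called higher and 1 lower. The sum of 7 macrophage markers was 1280 to 1350, 691 to 831, 1270 to 1310 and 8090 to 11300 CPM in the same order. A list of 5 ciliated duct markers summed to 1.32 to 21.9 CPM in the wt saline libraries, at most 0.726 in wt CL, 46 to 60.8 in ko saline and at most 6.64 in ko CL. In such bulk samples, fewer cells of a type and less RNA per cell cannot be told apart, and the part of these shifts in the results below was not tested.

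Under saline, the members that differed between the genotypes were all higher in ko. They were 7 of the 50: the polymerase genes Polr2a, Polr2b and Polr2d, the general factors Gtf2a1, Gtf2b and Gtf2e2, and the Mediator scaffold Med14. Polr2a was 2.05-fold higher and had the largest difference. The 7 members are 14% of those tested, beside 7.99% of all genes tested that were higher in ko and 6.45% that were lower. Calls are at an adjusted p of 0.05 in the quasi-likelihood test of edgeR, adjusted by Benjamini-Hochberg over all 16554 genes. In either direction 14.4% of all genes were called. The median difference of the members was 0.06 on the log2 scale, and that of all genes was -0.01.

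Under CL, ko and wt differed in both directions. Higher in ko were 7 members, 14% of those tested beside 27.6% of all genes, and lower were 10, 20% beside 29.3%. In either direction 56.8% of all genes were called, beside 17 of the 50 members. The higher members were Polr2a, Gtf2a1, Gtf2f1, Med13, Med15, Med17 and Med23. The lower members were Polr2c, Polr2g, Polr2k, Polr2m, Gtf2a2, Gtf2e1, Med8, Med12l, Med21 and Med27. Med12l, a paralogue of the kinase-module subunit Med12, was 3.11-fold lower in ko. Polr2a and Gtf2a1 were called under both treatments, which is 28.6% of the 7 members called under saline and 11.8% of the 17 called under CL. Repeated calls over all genes were not counted, so these shares have no background to be read against.

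In wt, CL was followed by a rise of 9 members, 18% of those tested beside 19.6% of all genes. Only Med28 fell, 2% of the members beside 17.1% of all genes. In either direction 36.8% of all genes were called, beside 10 of the 50 members. Of the general factors, Tbp, Gtf2b, Gtf2e2 and Gtf2f2 rose, which is 4 of the 8 tested. The other members that rose were Polr2b, Polr2c, Polr2g, Med8 and Med24. The median CL response of the members was 0.10 on the log2 scale, against -0.01 for all genes. Over the same libraries the sum of 4 proliferation markers was 25.1 to 35.6 CPM under saline and 123 to 128 under CL, and in ko it was 33.6 to 48.6 and 153 to 204. In wt the sum of 5 endothelial markers was 884 to 916 CPM under saline and 1090 to 1390 under CL. That of 5 fibroblast and progenitor markers was 2240 to 2430 and 1250 to 1500, and that of 4 mesothelial markers 189 to 229 and 79.4 to 92.5. The part of these shifts in the members' responses was not tested.

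In ko, CL was followed by a rise of 12 members, 24% beside 27.2% of all genes, and a fall of 8 members, 16% beside 27.5%. In either direction 54.6% of all genes were called, beside 20 of the 50 members. Of the 12 that rose, 10 belong to Mediator: Med1, Med10, Med11, Med12, Med13, Med13l, Med15, Med17, Med23 and Med24. Mediator supplies 29 of the 50 tested members, and these 10 are 34.5% of the 29, beside 27.2% of all genes. A further 4 of the 29 fell, 13.8% beside 27.5% of all genes. The other members that rose were Polr2e and Gtf2f1. Those that fell were Polr2a, Polr2b, Polr2d, Gtf2e1, Med12l, Med21, Med27 and Med28. Med24 and Med28 were called in the same direction in both genotypes, and Polr2b in opposite directions. The genes called in both genotypes were not counted over all genes.

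**Figure D1:**
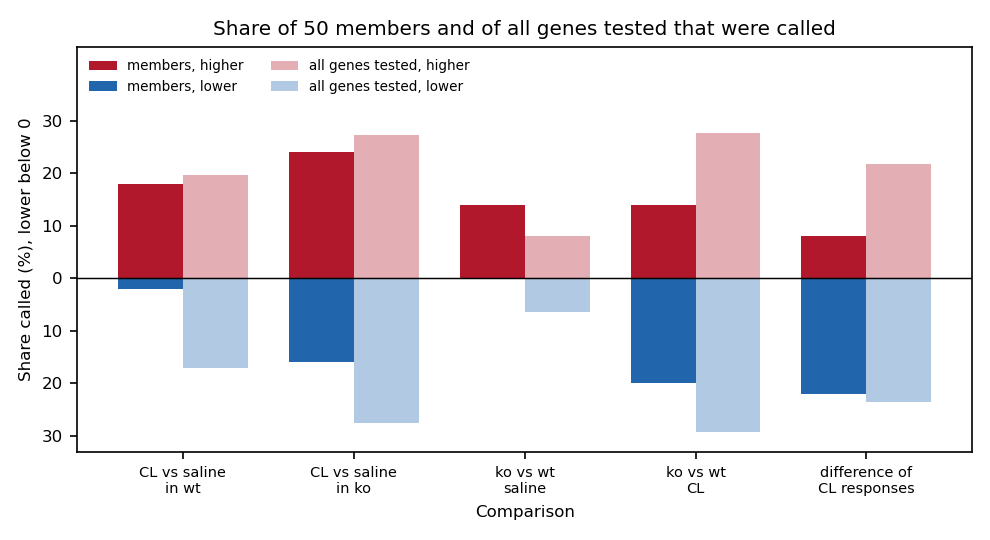
Share of the 50 tested members (full colour) and of all 16554 genes tested (pale) that were called higher (above 0) or lower (below 0) in each comparison, in percent. The members had no lower call in ko against wt under saline and 2% lower calls under CL in wt, beside 6.45% and 17.1% of all genes.

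The direction counts depend on the scaling. With library sizes alone, without TMM, the median of all genes moved to -0.33 for CL in wt and to 0.39 for ko against wt under CL. The members higher and lower then numbered 0 and 25 for CL in wt, 5 and 16 for CL in ko, 19 and 0 for ko against wt under saline, and 36 and 1 under CL. Relative to the median of all genes, the members' median was 0.11 higher for CL in wt under both scalings. It was 0.07 higher for ko against wt under saline and 0.04 lower under CL, again under both. Library sizes alone thus ended all 9 higher calls for CL in wt. Among the members named with the value in every library by rule, it also ended the calls of Med1, Med13 and Med17 for CL in ko, and of Polr2c, Polr2g, Gtf2e1 and Med8 for ko against wt under CL. The fold changes below use TMM, so they are relative to the bulk of the genes.

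**Figure D2:**
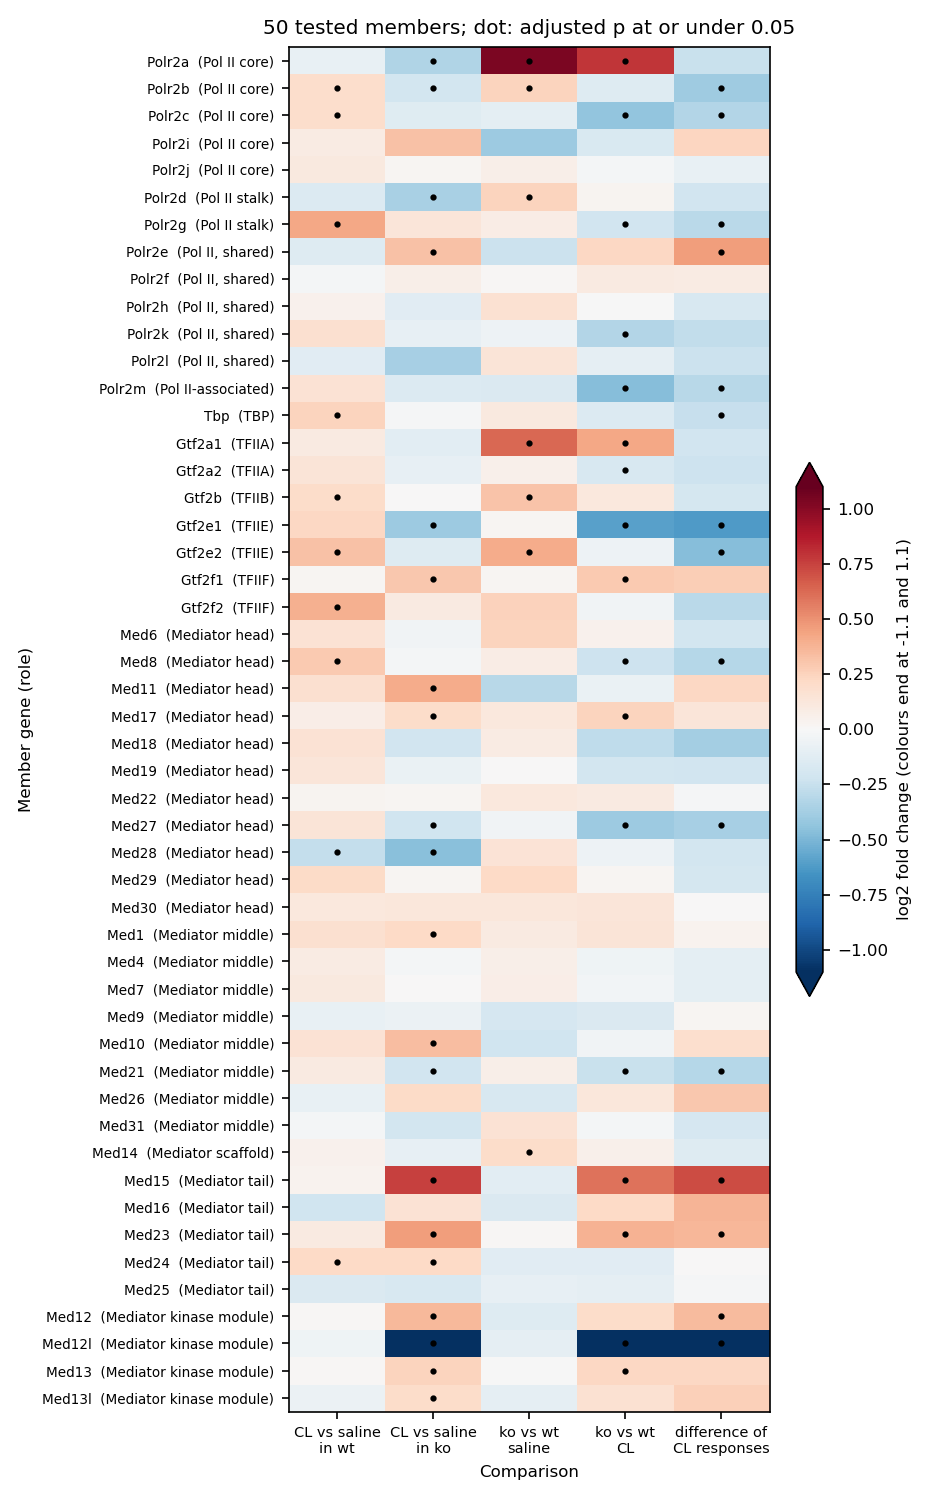
Log2 fold change (colour) of the 50 tested members (one per line, grouped by role) in the 5 comparisons (columns), with a dot where the adjusted p was at or under 0.05. Polr2a and Gtf2a1 carry dots in both columns of ko against wt, while Med15, Med23 and Med12l carry them in the columns with ko CL.

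Polr2a (ENSMUSG00000005198, GRCm38 chr11:69733997-69758637, minus strand) encodes the catalytic subunit with the repeated tail. Its level was 162, 138 and 159 CPM in the wt saline libraries and 148, 152 and 133 in wt CL. It was 327, 306 and 309.5 CPM in ko saline and 275, 228 and 245 in ko CL. All 6 ko libraries lay above all 6 wt libraries, and within ko the saline libraries lay above the CL libraries. The log2 difference of ko from wt was 1.04 ± 0.088 (SE, adjusted p = 2.45e-05) under saline and 0.79 ± 0.088 (adjusted p = 5.87e-06, 1.73-fold) under CL. CL in ko lowered Polr2a by 0.33 ± 0.087 on the log2 scale (adjusted p = 0.00583), while the wt libraries with and without CL overlapped. The exact two-sided permutation p was 0.1 for each of the 3 differences, the smallest that 3 libraries against 3 allow. Without each library in turn, the log2 difference of ko from wt stayed between 0.97 and 1.09 under saline and between 0.71 and 0.85 under CL, and was called in all 12 fits. Over the same groups the adipocyte marker sum was lower in ko, and the macrophage sum overlapped between the genotypes under saline alone. Of the 7 adipocyte markers, 5 were called lower in ko under saline and 2 were not called, and under CL all 7 were lower. Adipoq had a mean of 3332 CPM in wt saline and 3369 in ko saline.

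Of the other 12 polymerase genes, Polr2b and Polr2d were also higher in ko under saline, and none was under CL. The summed level of the 12 was 317 ± 12 CPM (SD, n = 3) in wt saline, 349.6 ± 9.8 in wt CL, 328 ± 12 in ko saline and 313 ± 6.5 in ko CL. Polr2a thus made up 32.5%, 29.2%, 48.9% and 44.3% of the counts of the 13 polymerase genes, in that order. Polr2b, the second-largest subunit, was at 77.3, 79.6 and 86.6 CPM in wt saline and 89.4, 91.3 and 97.5 in wt CL. It was at 102, 95.1 and 91.4 CPM in ko saline and 83.5, 82.7 and 85.3 in ko CL. CL thus went with higher libraries in wt (log2 0.19, adjusted p = 0.0325) and lower ones in ko, without overlap. Library sizes alone ended the call of Polr2b in wt, so its direction there depends on the scaling. Its calls were not followed through the fits that leave out a library. The difference between these CL responses was -0.39 ± 0.091 on the log2 scale (adjusted p = 0.00343).

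Polr2c, which starts assembly of the core with Polr2j, had 40.5, 41.2 and 41.9 CPM in wt saline and 46.3, 45.8 and 49.4 in wt CL. In ko it had 38.5, 39.2 and 36.9 CPM under saline and 33.0, 36.5 and 35.1 under CL. It rose with CL in wt by 0.19 on the log2 scale (adjusted p = 0.0205), a call that was lost without wt saline replicate 1 or 2 or without wt CL replicate 3, and with no filter on low counts. With library sizes alone this change was -0.12. Under CL it was lower in ko than in wt by a log2 difference of -0.44 ± 0.059 (adjusted p = 3.54e-05), with no overlap between libraries. Polr2m, also known as GDOWN1, binds a form of the polymerase that depends on Mediator. Under CL it was at 38.2, 38.3 and 40.2 CPM in wt and at 25.8, 29.1 and 29.6 in ko, a log2 difference of -0.47 ± 0.081 (adjusted p = 0.000286). Its wt and ko libraries overlapped under saline.

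The stalk of the polymerase is made of Polr2d and Polr2g. Polr2g was at 35.1, 41.3 and 36.8 CPM in wt saline and at 51.6, 47.1 and 52.9 in wt CL. In ko it was at 39.4, 43.0 and 37.3 CPM under saline and at 42.8, 41.9 and 46.3 under CL. Only the wt CL libraries stood above all others. The rise in wt was 0.42 ± 0.080 on the log2 scale (adjusted p = 0.00123, 1.34-fold). The lower level of ko under CL (log2 -0.21, adjusted p = 0.0365) was called in 8 of the 12 fits that leave out a library and in none of the 6 other settings, and turned to 0.17 with library sizes alone. Without wt CL replicate 1 or 3, or ko CL replicate 1 or 2, its adjusted p rose to between 0.0807 and 0.119. Polr2d was at 19.4, 19.4 and 20.5 CPM in the wt saline libraries and 18.1, 16.9 and 18.6 in wt CL. In ko it was at 21.5, 25.0 and 23.7 CPM under saline and 18.2, 18.6 and 17.97 under CL. It was thus above wt in ko saline (log2 0.24, adjusted p = 0.0416) and fell with CL in ko by 0.36 (adjusted p = 0.00113), with no overlap in either comparison. These calls of Polr2d were not followed through the fits that leave out a library. In wt the CL libraries also lay below the saline libraries, by a log2 change of -0.15 that was not called (adjusted p = 0.139). The difference between the CL responses of Polr2d was not called.

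Of the 5 subunits shared with polymerases I and III, Polr2e rose with CL in ko (log2 0.32, adjusted p = 0.0297) and Polr2k was lower in ko than in wt under CL (log2 -0.33, adjusted p = 0.0374). Polr2e was at 20.9, 25.7 and 26.6 CPM in ko saline and at 30.6, 31.3 and 29.6 in ko CL. The remaining shared subunits Polr2f, Polr2h and Polr2l, and the core subunits Polr2i and Polr2j, had no call in any of the 5 comparisons.

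**Figure D3:**
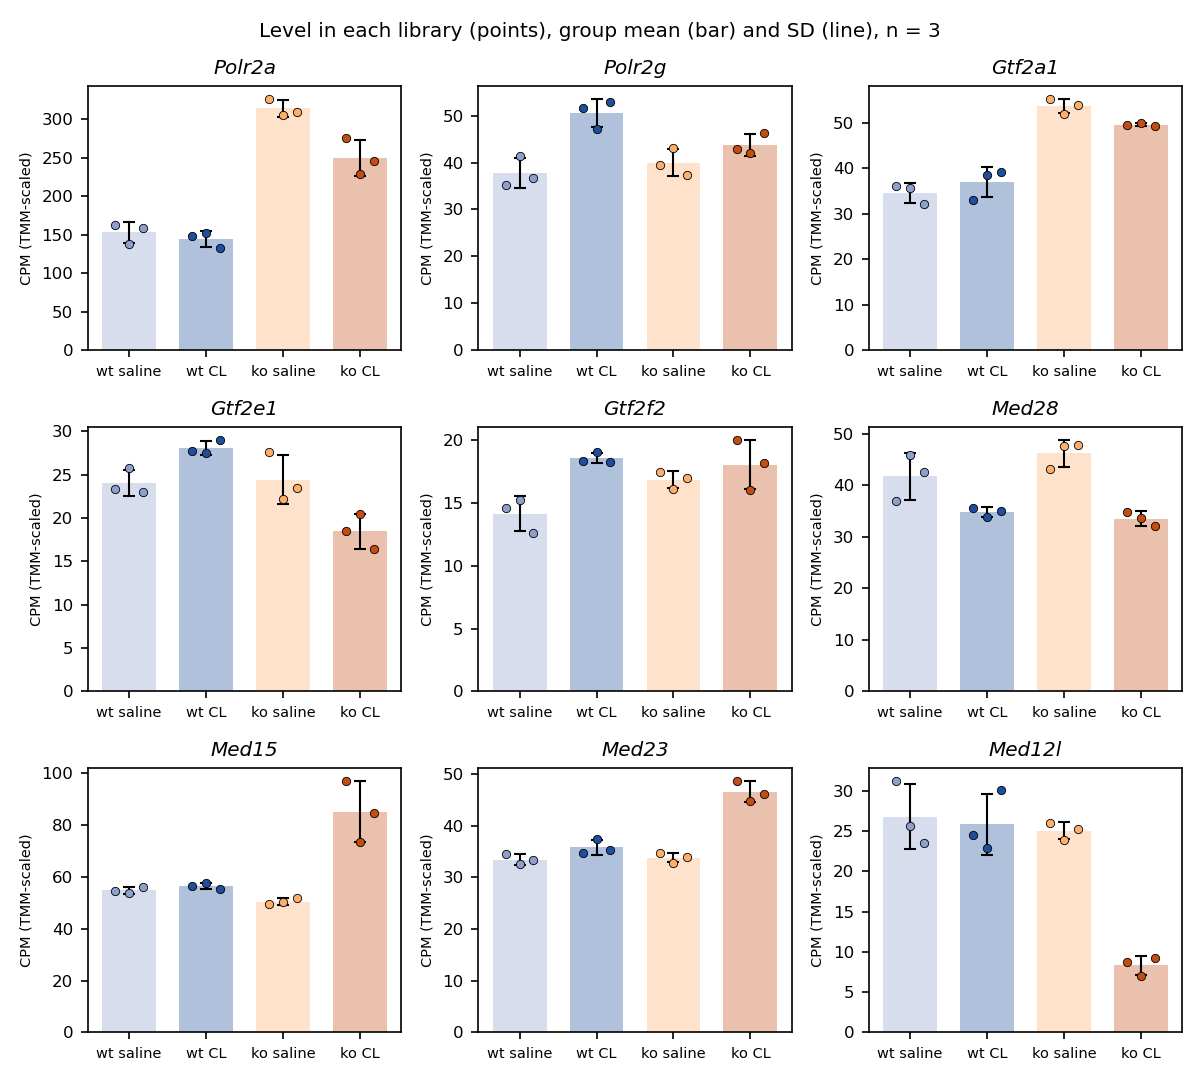
TMM-scaled CPM of 9 members in each library (points), with the group mean (bar) and SD (line), n = 3. Polr2a and Gtf2a1 are high in both ko groups, while Med15 and Med23 are high and Med12l and Gtf2e1 low in ko CL alone.

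Among the general factors, the largest difference between the genotypes under saline was that of the TFIIA gene Gtf2a1. Gtf2a1 (ENSMUSG00000020962, GRCm38 chr12:91555262-91590487, minus strand) encodes the precursor of the large TFIIA subunits, which steady TBP on DNA. Its level was 36.0, 35.7 and 32.1 CPM in wt saline and 33.1, 38.5 and 39.2 in wt CL. It was 55.1, 51.9 and 53.9 CPM in ko saline and 49.5, 49.99 and 49.2 in ko CL. As for Polr2a, all 6 ko libraries lay above all 6 wt libraries. The log2 difference of ko from wt was 0.63 ± 0.071 (adjusted p = 0.000231) under saline and 0.42 ± 0.072 (adjusted p = 0.000227) under CL, and held in all 12 fits that leave out a library. The small TFIIA subunit Gtf2a2 was not called under saline and was lower in ko under CL (log2 -0.18, adjusted p = 0.031).

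Gtf2b, or TFIIB, links TBP to the polymerase. It was at 29.6, 29.4 and 31.1 CPM in the wt saline libraries, 33.4, 33.8 and 36.6 in wt CL, 38.9, 37.4 and 35.7 in ko saline and 39.3, 36.8 and 36.5 in ko CL. The wt saline libraries were the lowest, and ko exceeded wt under saline by 0.31 ± 0.062 on the log2 scale (adjusted p = 0.00694). The rise with CL in wt (log2 0.20, adjusted p = 0.0237) was lost without wt saline replicate 1 or 2 or wt CL replicate 3, with no filter on low counts and with only the groups compared, and was -0.11 with library sizes alone. Tbp, the TATA-binding protein, was at 20.9, 19.8 and 19.7 CPM in wt saline and at 22.4, 23.7 and 25.4 in wt CL, with no overlap. All 6 ko libraries were between 21.1 and 21.8 CPM. Its rise in wt was 0.24 ± 0.066 (log2, adjusted p = 0.0119), was lost without wt CL replicate 3 (adjusted p = 0.0575) and with no filter on low counts, and was -0.07 with library sizes alone.

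TFIIE, which recruits TFIIH to the promoter, has the subunits Gtf2e1 and Gtf2e2, and they differed in their pattern. Gtf2e1 was at 23.4, 25.8 and 23.0 CPM in the wt saline libraries, 27.7, 27.5 and 29.1 in wt CL, 27.6, 22.2 and 23.5 in ko saline and 18.5, 20.5 and 16.4 in ko CL. The ko CL libraries were below all others. Against wt under CL the log2 difference was -0.60 ± 0.099 (adjusted p = 0.00017), and against ko saline it was -0.40 (adjusted p = 0.00368). Gtf2e2 was at 19.6, 20.4 and 19.7 CPM in wt saline and at 24.8, 23.0 and 26.8 in wt CL. It was at 26.7, 29.5 and 23.1 CPM in ko saline and at 23.8, 23.8 and 24.1 in ko CL. The wt saline libraries alone stood low, with ko above wt under saline by 0.40 ± 0.087 (log2, adjusted p = 0.00992). The rise of Gtf2e2 with CL in wt (log2 0.32, adjusted p = 0.013) was lost without wt saline replicate 1 or wt CL replicate 3.

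TFIIF travels with the polymerase and has the subunits Gtf2f1 and Gtf2f2. Gtf2f2 was at 14.6, 15.3 and 12.6 CPM in wt saline and at 18.4, 19.1 and 18.3 in wt CL, a rise of 0.39 ± 0.097 on the log2 scale (adjusted p = 0.0067) without overlap. In ko it was at 17.5, 16.2 and 17.0 CPM under saline and at 20.0, 16.1 and 18.2 under CL, where the groups overlapped. Gtf2f1 was called in the other genotype: it was at 20.0, 25.5 and 24.6 CPM in ko saline and at 29.1, 27.9 and 29.0 in ko CL. It was above wt under CL by 0.29 on the log2 scale (adjusted p = 0.0126).

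**Figure D4:**
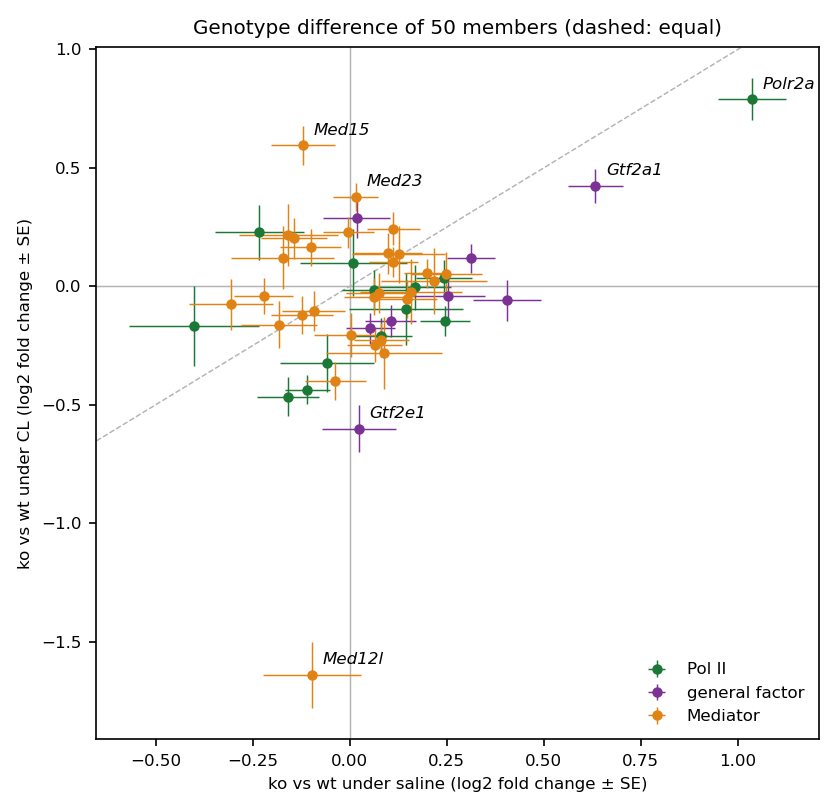
Log2 difference of ko from wt under saline (horizontal) and under CL (vertical) for each of the 50 members, with SE as lines and the dashed line marking equal differences. Polr2a and Gtf2a1 lie at the upper right, while Med12l, Gtf2e1, Med15 and Med23 lie near 0 on the saline axis and away from 0 on the CL axis.

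The Mediator genes summed to 854 ± 11 CPM in the wt saline libraries, 880.5 ± 5.4 in wt CL, 852 ± 2.2 in ko saline and, highest, 926 ± 38 in ko CL (SD, n = 3). The ko CL libraries, at 889 to 965 CPM, were above all others, where the macrophage markers were also highest and the adipocyte markers lowest. This higher sum was not a rise of the typical Mediator gene. The median log2 change of the 29 tested genes with CL in ko was 0.02, with 16 estimates above 0. For ko against wt under CL the median was -0.02, with 14 above 0. Med15 alone went from a mean of 50.5 CPM to 85.25 when ko mice were given CL instead of saline. Over all genes 27.2% rose and 27.5% fell with CL in ko. In the tail, which contacts activators, 3 of the 5 genes rose with CL in ko (Med15, Med23 and Med24) and none fell. In the kinase module 3 of the 4 rose and Med12l fell. Of the 11 head genes tested, 2 rose and 2 fell (18.2% each), and of the 8 middle genes 2 rose (25%) and 1 fell (12.5%).

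Med15 (ENSMUSG00000012114, GRCm38 chr16:17651208-17732891, minus strand) is the tail subunit that binds the sterol-regulated factor SREBP. It was at 54.5, 53.8 and 56.3 CPM in the wt saline libraries, 56.5, 57.5 and 55.4 in wt CL, and 49.4, 50.2 and 51.9 in ko saline. In ko CL it was at 97.2, 73.7 and 84.8 CPM, above the other 9 libraries. The rise with CL in ko was 0.76 ± 0.082 on the log2 scale (adjusted p = 6.36e-06, 1.69-fold), and the excess over wt under CL was 0.59 ± 0.083 (adjusted p = 4.17e-05, 1.51-fold). Med23 (ENSMUSG00000019984, GRCm38 chr10:24869986-24913681, plus strand), a tail subunit bound by the insulin-responsive factor ELK1, followed the same pattern. It was at 34.5, 32.5 and 33.3 CPM in the wt saline libraries, 34.7, 37.5 and 35.3 in wt CL, 34.7, 32.9 and 33.9 in ko saline and 48.8, 44.8 and 46.2 in ko CL. Its rise with CL in ko was 0.46 ± 0.058 (log2, adjusted p = 2.39e-05, 1.38-fold), and its excess over wt under CL was 0.38 ± 0.059 (adjusted p = 0.000111). For both genes these calls held in all 12 fits that leave out a library. Med23 shares 107 exon bases on the same strand with the small RNA gene Gm23410, and Med24 shares 81 with Gm22059, so their counts are uncertain over those bases. The other tail genes Med16 and Med25 had no call.

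In the kinase module, which holds Mediator away from the polymerase, Med12 and its paralogue Med12l moved apart. Med12l (ENSMUSG00000056476, GRCm38 chr3:59005825-59318682, plus strand) was at 31.2, 25.6 and 23.4 CPM in the wt saline libraries, 24.5, 22.9 and 30.1 in wt CL and 25.9, 23.9 and 25.2 in ko saline. In ko CL it was at 8.80, 6.94 and 9.22 CPM, far below the other 9 libraries. The fall with CL in ko was 3.02-fold (log2 -1.59 ± 0.137, adjusted p = 7.66e-07), and the difference from wt under CL was -1.64 ± 0.139 (log2, adjusted p = 5.1e-07). Both held in every fit that leaves out a library. The adipocyte markers were also lowest in these 3 libraries, and the macrophage markers highest. The sum of 5 endothelial markers was lowest there too, at 476 to 629 CPM beside 794 to 834 in ko saline. The part of these shifts in the fall of Med12l was not tested.

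Med12, which activates the module's kinase, was at 72.6, 60.9 and 68.1 CPM in the wt saline libraries, 71.7, 67.2 and 64.0 in wt CL, 61.6, 59.0 and 61.8 in ko saline and 84.9, 68.6 and 79.8 in ko CL. It rose with CL in ko (log2 0.36, adjusted p = 0.00328), while wt CL and ko CL overlapped. Med12 shares 749 exon bases on the same strand with Gm21986, so its counts are uncertain. Med13, which tethers the module to Mediator, was at 95.9, 85.9 and 89.8 CPM in wt saline and at 89.5, 91.4 and 92.9 in wt CL. In ko it was at 91.0, 89.8 and 90.2 CPM under saline and at 113, 96.6 and 111 under CL, the highest of the 12 libraries. Its rise with CL in ko was 0.24 on the log2 scale (adjusted p = 0.00772), lost without ko CL replicate 1 or 3, and its excess over wt under CL was 0.23 (adjusted p = 0.0109), lost without ko CL replicate 3. The paralogue Med13l rose with CL in ko by 0.20 (adjusted p = 0.0442).

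Of the kinase module's 3 partners, which are not members by the rule, Cdk19 rose with CL in ko. This paralogue of the kinase Cdk8 was at 31.8, 29.6 and 34.0 CPM in the wt saline libraries, 29.6, 33.0 and 27.9 in wt CL, 32.2, 30.7 and 32.7 in ko saline and 60.2, 47.5 and 45.0 in ko CL. Its rise with CL in ko was 0.68 on the log2 scale (adjusted p = 0.000114). Their cyclin Ccnc fell with CL in ko by 0.37 (adjusted p = 0.00325), and Cdk8 was not called in any comparison.

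In the head and middle modules no member differed as much as Med15 or Med12l in the comparisons with ko CL. Med17, a core head subunit that touches the polymerase, was at 28.6, 27.2 and 30.3 CPM in the wt saline libraries, 29.8, 30.0 and 30.8 in wt CL, 30.2, 32.3 and 30.6 in ko saline and 38.03, 32.8 and 36.5 in ko CL. The ko CL libraries were the highest, above wt CL by 0.24 on the log2 scale (adjusted p = 0.00823). The rise with CL in ko (log2 0.20, adjusted p = 0.0204) was lost without wt saline replicate 1, ko saline replicate 1 or 3, or ko CL replicate 1 or 3, with no filter on low counts, and with only the groups compared. Med8, another head subunit, was at 32.4, 33.5 and 35.3 CPM in wt saline and at 38.4, 39.9 and 45.2 in wt CL. This rise was 0.29 ± 0.072 (log2, adjusted p = 0.007), and with library sizes alone the change was -0.03. The ko libraries of Med8 were between 33.2 and 37.1 CPM, lower than wt under CL (log2 -0.23, adjusted p = 0.0152). That call was lost without wt CL replicate 3 (adjusted p = 0.0787) and with only the groups compared, and the difference was 0.16 with library sizes alone.

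Med28, assigned to the head, was the member that fell with CL in both genotypes. It was at 36.9, 45.9 and 42.6 CPM in wt saline and at 35.6, 33.8 and 35.1 in wt CL. In ko it was at 43.2, 47.6 and 47.9 CPM under saline and at 34.9, 33.7 and 32.0 under CL. No CL library reached a saline library of its genotype. The fall was 0.46 ± 0.079 on the log2 scale in ko (adjusted p = 0.000295) and 0.26 in wt (adjusted p = 0.0213), and the call in wt was lost without wt saline replicate 2 or 3 or wt CL replicate 2 or 3. Med27, a neighbouring subunit, was lower in ko than in wt under CL by a log2 difference of -0.40 (adjusted p = 0.00086).

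Med14, the scaffold that joins the modules, was at 38.01, 39.1 and 38.5 CPM in wt saline and at 46.3, 43.7 and 42.7 in ko saline, without overlap. Under CL it was at 38.3, 40.3 and 41.2 CPM in wt and at 43.9, 39.7 and 40.8 in ko, where the groups overlapped. The difference under saline was 0.20 on the log2 scale (adjusted p = 0.0416) and was called in 6 of the 12 fits that leave out a library. The call was also lost with no filter on low counts and with a block for the replicate number. It was lost without any 1 of the wt saline libraries, wt CL replicate 2, or ko saline replicate 1 or 2. Med1, the middle subunit that binds nuclear receptors such as PPARG, was at 48.7, 51.1 and 48.0 CPM in wt saline and at 59.8, 50.02 and 57.5 in wt CL. In ko it was at 58.2, 53.3 and 46.7 CPM under saline and at 59.5, 65.7 and 58.9 under CL. The ko groups did not overlap, with a rise of 0.22 (log2, adjusted p = 0.0481). That call was kept in 3 of the 12 fits that leave out a library, those without wt CL replicate 1 or 2 or ko saline replicate 1, and in none of the 6 other settings. Med26, which recruits elongation factors, was at 7.53, 6.04 and 6.37 CPM in the wt saline libraries, 6.31, 6.30 and 6.21 in wt CL, 6.30, 5.08 and 6.28 in ko saline and 7.65, 6.67 and 6.12 in ko CL, and was not called in any comparison.

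A further 2 middle genes and 1 head gene were called in ko with CL: Med10 rose by 0.34 on the log2 scale (adjusted p = 0.00205), Med11 by 0.40 (adjusted p = 0.00655), and Med21 fell by 0.21 (adjusted p = 0.0224). Over the 5 comparisons, 32 members were called at least once and 18 in none, and the same count over all genes was not made. In the single comparisons 14% to 40% of the members were called, beside 14.4% to 56.8% of all genes. The 18 are Med4, Med6, Med7, Med9, Med16, Med18, Med19, Med22, Med25, Med26, Med29, Med30, Med31, Polr2f, Polr2h, Polr2i, Polr2j and Polr2l. Every member called in a comparison of groups also had libraries that did not overlap: all 10 for CL in wt, all 20 for CL in ko, all 7 for the genotypes under saline and all 17 under CL. Calls and overlap are read from the same libraries, so this is no separate support for the calls. Counting each member whose libraries did not overlap, called or not, 16 were higher and 3 lower for CL in wt, beside 26.6% and 24.4% of all genes. For CL in ko 13 were higher and 13 lower, beside 29.7% and 31.2%. For ko against wt, 12 were higher and 5 lower under saline, beside 19.4% and 18.3%, and 7 were higher and 14 lower under CL, beside 30.9% and 32.7%.

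The CL responses of the genotypes were compared directly. The response was larger in ko, or less negative, for 4 members, 8% beside 21.8% of all genes, and smaller or more negative for 11, 22% beside 23.6%. In either direction 45.4% of all genes differed, beside 15 of the 50 members. The 4 were Med15, Polr2e, Med23 and Med12. The 11 were Med12l, Gtf2e1, Gtf2e2, Polr2b, Med27, Polr2c, Med21, Med8, Polr2m, Polr2g and Tbp. The median of the members was -0.18 on the log2 scale and that of all genes -0.03. With library sizes alone the counts were 12 and 2, the median of all genes 0.20 and that of the members 0.05, so the members' median stood 0.15 below that of all genes under both scalings. Across the 50 members, Pearson's r between the CL responses of wt and ko, which share no library, was 0.16, and over all genes it was 0.39, with genes not being independent replicates.

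Levels were compared between genes only after division by exon length. Per kb of exon, the highest level in wt saline was that of Polr2g, at 30.3 ± 2.6 CPM per kb (SD, n = 3), followed by Polr2a at 21.6 ± 1.9, with Polr2j and Polr2d at 19.5 each. The lowest of the tested members were Med18 at 1.29, Tbp at 1.48, Med12l at 2.10 and Med26 at 2.22 CPM per kb. Tbp and Med12l were divided by 13576 and 12763 annotated exon bases, so their low values depend on those lengths. In ko saline Polr2a came first at 44.4 ± 1.6 CPM per kb. In ko CL it was at 35.3 ± 3.4 beside 35 ± 1.8 for Polr2g, which do not differ beyond their spread. The ranks depend on the length used: by the longest transcript, Polr2g was at 42.4 CPM per kb in wt saline and Polr2a, at 22.7, ranked 4.

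**Figure D5:**
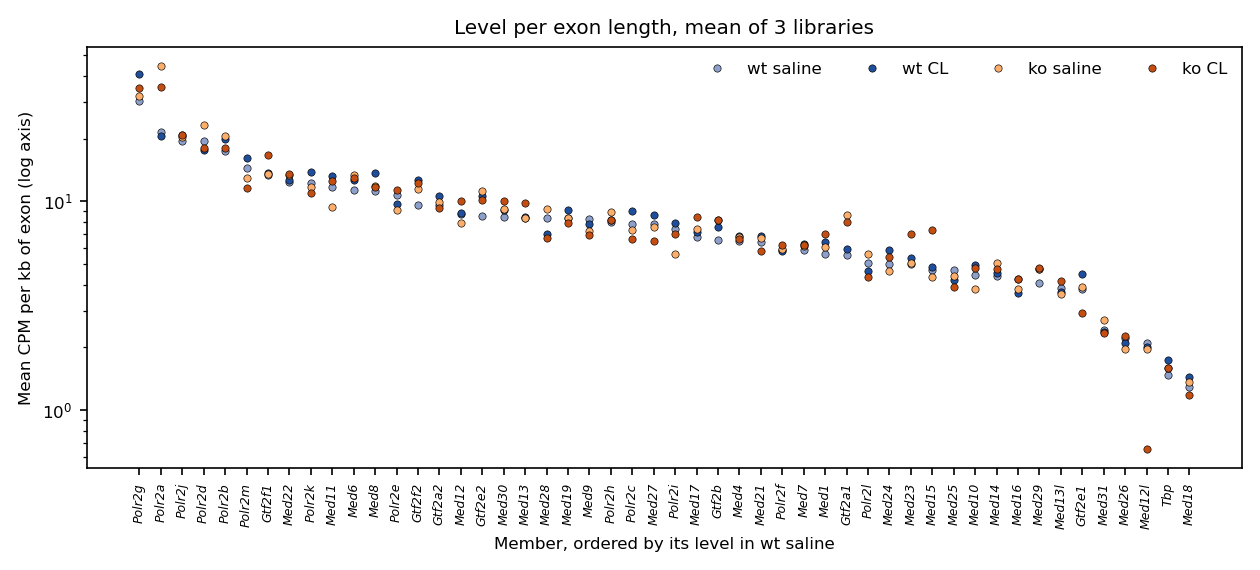
Mean CPM per kb of exon (log axis) of the tested members in the 4 groups (colours, n = 3), ordered by the level in wt saline. Polr2a in the ko groups, and Med12l in ko CL, lie apart from the other groups of the same gene.

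The start-site regions of 4 members are shown because Polr2a and Gtf2a1 were higher in ko under both treatments, and Med15 and Med12l differed under CL alone. Each is the 250 bases before the RefSeq start site (GRCm38.p6), read 5′ to 3′ on the gene's strand. The windows are Polr2a chr11:69758634-69758883 (minus), Gtf2a1 chr12:91590488-91590737 (minus), Med15 chr16:17722948-17723197 (minus) and Med12l chr3:59006728-59006977 (plus). RefSeq lists 2 windows each for Gtf2a1 and Med15, of which the most upstream is shown, and the windows of Med15 and Med12l lie inside the GENCODE gene. Capitals mark matches, on either strand, to a TATA box (TATAAA), the GC box (GGGCGG), an ETS site (CCGGAAG), the NRF1 core (GCATGCGC), an E-box (CACGTG) or the cAMP response element core (TGACG).
Polr2a: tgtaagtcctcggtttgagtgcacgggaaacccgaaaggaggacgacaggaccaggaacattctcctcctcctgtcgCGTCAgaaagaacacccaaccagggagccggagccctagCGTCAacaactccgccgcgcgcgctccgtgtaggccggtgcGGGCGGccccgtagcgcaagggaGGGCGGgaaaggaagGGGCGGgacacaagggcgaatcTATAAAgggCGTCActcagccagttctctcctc
Gtf2a1: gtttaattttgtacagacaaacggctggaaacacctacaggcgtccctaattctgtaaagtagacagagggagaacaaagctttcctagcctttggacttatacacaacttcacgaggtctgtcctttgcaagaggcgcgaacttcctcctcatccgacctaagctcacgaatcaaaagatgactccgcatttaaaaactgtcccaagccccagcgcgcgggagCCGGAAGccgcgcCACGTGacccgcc
Med15: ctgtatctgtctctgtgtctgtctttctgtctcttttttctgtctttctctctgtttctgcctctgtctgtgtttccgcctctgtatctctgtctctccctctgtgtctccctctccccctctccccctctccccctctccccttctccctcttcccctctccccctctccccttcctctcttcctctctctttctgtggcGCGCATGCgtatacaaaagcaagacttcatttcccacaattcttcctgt
Med12l: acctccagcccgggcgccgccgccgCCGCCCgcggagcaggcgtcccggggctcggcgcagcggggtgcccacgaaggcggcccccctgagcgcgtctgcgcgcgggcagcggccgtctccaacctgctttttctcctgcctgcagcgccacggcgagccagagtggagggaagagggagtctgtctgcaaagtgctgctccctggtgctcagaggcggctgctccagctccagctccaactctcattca

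The Polr2a window held a TATA box 33 bases before the start site, 3 GC boxes and 3 reverse-strand TGACG matches. That of Gtf2a1 held an ETS match and an E-box within its last 26 bases. Med15 held an NRF1 core on the reverse strand, and Med12l a GC box on the reverse strand. No 2 of these windows held the same set of matches. RefSeq windows, here with the 50 bases after the start site as well, were found for 44 members, with 51 start sites. Shares follow for the member windows, for all 32851 windows and for the 21263 windows of protein-coding genes, the class to which all members belong. TATAAA was in 13.7%, 13.6% and 12.6%. GGGCGG was in 58.8%, 35.7% and 46.2%, and TGACG in 43.1%, 20.8% and 23.6%. CCGGAAG was in 29.4%, 8.86% and 11.6%, GCATGCGC in 13.7%, 2.71% and 3.52%, and CACGTG in 11.8%, 7.15% and 7.84%. The full element TGACGTCA, which contains TGACG, was in 3.92%, 1.79% and 2.23%. The motifs were chosen after the sequences were seen, and a match is a description of letters, not a bound site. Windows for Gtf2e2, Med8, Med23, Med24, Med30, Polr2d, Polr2g and Polr2k were not analysed here.

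The partners of these complexes in initiation and elongation were counted by list. Among the TBP-associated factors, which include subunits of TFIID, Taf9 had 0 counts in every library and was not tested. Of the 15 tested, 2 rose with CL in wt (13.3%, beside 19.6% of all genes) and none fell (beside 17.1%). With CL in ko 3 rose and 4 fell, 20% and 26.7% beside 27.2% and 27.5% of all genes. Under saline 4 were higher in ko and none lower, 26.7% beside 7.99% higher and 6.45% lower over all genes. Under CL 1 was higher and 3 were lower, 6.67% and 20% beside 27.6% and 29.3%. Taf13, a small histone-fold subunit of TFIID, was at 26.6, 31.04 and 27.8 CPM in the wt saline libraries, 39.2, 39.3 and 44.5 in wt CL, 49.8, 49.0 and 46.8 in ko saline and 34.2, 34.6 and 38.6 in ko CL. It was thus lowest in wt saline and highest in ko saline, with a log2 difference of 0.77 between them. Its CL response was 0.53 in wt and -0.44 in ko. Of the 27 pausing and elongation factor genes tested, 3 rose and 5 fell with CL in wt, 11.1% and 18.5% beside 19.6% and 17.1% of all genes. With CL in ko 6 rose and 5 fell, 22.2% and 18.5% beside 27.2% and 27.5%. Under saline 4 were higher in ko and none lower, 14.8% beside 7.99% higher and 6.45% lower over all genes. Under CL 5 were higher and 4 lower, 18.5% and 14.8% beside 27.6% and 29.3%.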

How the data were processed

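The authors deposited raw read counts per gene, 1 file for each of the 12 libraries, made with STAR and HTSeq on GRCm38 per the submitters' processing notes. The versions of these tools and the annotation release used are not stated in any source read here, and reverse-strand counting is stated only by the names of the files. The 5 HTSeq summary lines, 12.5% to 17.2% of all reads counted, were left out. Of 53379 gene identifiers, 53274 were matched to GENCODE M21 for symbols and coordinates. Libraries of a group differed by more than sampling noise (chi-square per degree of freedom 6.96 to 55.5 over 12 pairs).

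Counts were fitted with edgeR 4.0.16 in R 4.3.3, after filterByExpr with a minimum count of 10 and TMM scaling, with 1 mean per group over all 12 libraries (8 residual degrees of freedom). The quasi-likelihood test, adjusted by Benjamini-Hochberg over 16554 genes at 0.05, gave the calls, and its common biological coefficient of variation was 11.5%. The 5 comparisons were CL against saline within wt and within ko, ko against wt within saline and within CL, and the difference between the CL responses. SE is the size of a log2 fold change divided by the root of its F statistic. The pipeline was tested on simulated data. Polr2a alone was also compared by exact permutation (SciPy 1.17.1).

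The members and lists were chosen with earlier results of these data known. Named in every library were Polr2a, Tbp, Gtf2b, Med1, Med14, Med17, Med26, Med12, Med13 and Med23, the 4 called members with the smallest adjusted p in each comparison, and called members past 1.5-fold without overlap. Polr2d, Polr2e, Polr2m, Gtf2f1, Med10, Med11, Med21, Med13l, Taf13 and other members given with a value outside this rule were named after their values were seen. Where a gene shares exon bases with another on the same strand, its count is uncertain. The labels do not say whether the pools of a group came from separate litters or cages, so p-values measure the spread between these pools. Alternatives were DESeq2 size factors, library sizes alone, no filter on low counts, only the groups compared, a block for the replicate number, the DESeq2 1.42.0 Wald test, and leaving out each library in turn. Single values were followed through these only for the members named by the rule. Single calls of Polr2b, Polr2d, Polr2e, Polr2k, Polr2m, Gtf2a2, Gtf2f1, Med10, Med11, Med13l, Med21, Med24 and Med27 were not followed.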

Additional observations from a re-analysis of the deposited data

Results flagged for a closer look

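For 15 members the response to CL differed between the genotypes when the difference itself was tested (edgeR's quasi-likelihood test of the interaction, adjusted p at or under 0.05 over all genes). Values are the log2 response of ko minus that of wt, over 3 libraries in each of the 4 groups. The largest was that of Med12l, the kinase-module paralogue, at -1.54 (adjusted p = 3.18e-05). The tail subunits Med15 and Med23 had differences of 0.714 and 0.363, and the kinase-module subunit Med12 had 0.346. The TFIIE subunits Gtf2e1 and Gtf2e2 had differences of -0.625 and -0.465. Among the polymerase genes, the difference was -0.392 for Polr2b, -0.326 for Polr2c, -0.307 for Polr2m, -0.292 for Polr2g and 0.461 for Polr2e, the only polymerase gene with a positive one among those called. The Mediator subunits Med27, Med21 and Med8 had differences of -0.362, -0.31 and -0.31, and Tbp had -0.252. The calls of Tbp and Polr2g were each kept in 4 of the 12 fits that leave out a library, and in 1 and 0 of the 5 other settings. The call of Med12 was kept in 3 of 12 such fits and in all 5 other settings, and that of Med8 was lost without wt CL replicate 3 (adjusted p = 0.0605), with no filter on low counts and with library sizes alone. Library sizes alone also ended the calls of Gtf2e2 and Polr2c. Polr2a had a difference of -0.25 that was not called. The marker sums of macrophages and adipocytes also moved with the interaction, as given with the depths, and their part in these differences was not tested.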

How the results depend on the processing

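Of 782 values of named members under alternatives, 669 kept direction and call, 107 kept direction but lost the call, and 6 reversed, all with library sizes alone: Tbp (-0.074), Gtf2b (-0.11), Med8 (-0.027) and Polr2c (-0.12) for CL in wt, and Polr2g (0.17) and Med8 (0.16) for ko against wt under CL. Library sizes alone changed the members higher and lower to 0 and 25 for CL in wt, 5 and 16 for CL in ko, 19 and 0 for the genotypes under saline, 36 and 1 under CL, and 12 and 2 for the interaction, and it moves the median of all genes by construction. Without the filter on low counts, 4 members rose with CL in wt and 6 had a lower response in ko; more genes were then tested. With only the groups compared, 6 members were lower in ko under CL, with fewer samples in the fit. Leaving out each library in turn gave 3 to 9 higher and 0 to 1 lower for CL in wt, 5 to 12 and 7 to 11 for CL in ko, 4 to 8 and 0 to 1 for the genotypes under saline, 6 to 9 and 6 to 11 under CL, and 2 to 5 and 7 to 12 for the interaction. A group left with 2 libraries is assumed to vary like the others. The replicate block gave 7 and 1, 9 and 8, 5 and 0, 8 and 9, and 3 and 9, in the same order. The numbers do not pair the libraries: over 18 same-numbered pairs the correlation of deviations was -0.355 to 0.176, above 0.1 in 2, and 4 of 12 libraries correlated best with their own number. DESeq2 size factors and the DESeq2 test stayed within 1.5 times of every count. At this depth Gtf2a1l was not testable.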

Other observations

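The subunits that belong to polymerases I and III alone, and the proteins that assemble polymerase II or remove phosphates from its tail, were counted beside the members. Of 19 polymerase I and III genes tested, 5 rose and 2 fell with CL in wt, 26.3% and 10.5% beside 19.6% and 17.1% of all genes. With CL in ko 6 rose and 2 fell, 31.6% and 10.5% beside 27.2% and 27.5%. None was called between the genotypes under saline by edgeR's quasi-likelihood test, and under CL 3 were higher and 5 lower in ko, 15.8% and 26.3% beside 27.6% and 29.3%. Polr3g, a polymerase III subunit, rose with CL in wt by 1.07 ± 0.136 on the log2 scale (adjusted p = 7e-05).

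Of 15 assembly factors and tail phosphatases tested, 1 rose and 2 fell with CL in wt, 6.67% and 13.3% beside 19.6% and 17.1% of all genes. With CL in ko 4 rose and 6 fell, 26.7% and 40% beside 27.2% and 27.5%. Under saline none was higher and 2 were lower in ko, 13.3% lower beside 6.45%. Under CL 2 were higher and 6 lower, 13.3% and 40% beside 27.6% and 29.3%. Ctdspl, a small tail phosphatase, was lower in ko under CL by a log2 difference of -0.82, and its relative Ctdsp2 fell with CL in wt by 0.55. Tcea3, a form of the elongation factor TFIIS, fell with CL in wt by 0.99 (adjusted p = 0.000395), and the elongation factor Ell2 rose there by 0.69 (adjusted p = 5.42e-05). These genes were picked from their lists after their values were seen.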
